A study of Rattus norvegicus with 15 samples.

Results

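The 9 genes described here, IGF2, H19, CDKN1C, DLK1, PEG3, MEST, PLAGL1, GRB10 and NDN, are imprinted genes of growth control. They are 9 of 17463 gene symbols with read counts in 15 rat mammary tumour libraries, and they were picked by symbol with their levels in these libraries already known. Whether they vary together or peak in single tumours is therefore given as a description, with no test. All 9 passed the filter on low counts, which kept 11665 genes.

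The tumours came from Fischer rats in which N-nitroso-N-methylurea (NMU), a methylating carcinogen, was injected intraperitoneally on 2 occasions at 50 mg/kg. The 9 midkine libraries are from rats that also received midkine protein, a heparin-binding growth factor, at 300 ug/kg 3 times a week over the 2 weeks leading up to each NMU dose. The 6 vehicle libraries are from rats with the treatment label vehicle, whose schedule the labels do not describe separately. The labels give no age or sex, and every library is bulk RNA from a piece of tumour, so fewer cells of a type and less RNA per cell cannot be told apart. Libraries carry the group and the number of their title. A first number recurs in some titles (midkine 3-1 and 3-2, midkine 4-1 to 4-3, vehicle 2-1 and 2-2), and no label says whether this marks 1 animal, so p-values measure the spread between libraries, part of which may be technical.

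An imprinted gene is read mainly from the copy inherited from 1 parent. Imprinted genes cluster in the genome, share control regions that are methylated on 1 parental copy, and are expressed mostly in the fetus, where genes read from the paternal copy tend to promote growth and those read from the maternal copy tend to restrain it. In mouse, IGF2, DLK1, PEG3, MEST, PLAGL1 and NDN are read from the paternal copy and H19, CDKN1C and, in most tissues, GRB10 from the maternal copy. The counts add both copies together, so they carry no information on which copy was read.

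Libraries held 4925504 to 8486523 counted reads (median 7252603). Epithelial markers of the tumour label (EPCAM, KRT8, KRT18, KRT19 and CDH1) were read in all 15. Their summed level was lowest in midkine 1, at 1600 CPM (counts relative to library size, adjusted by trimmed mean of M-values), in midkine 5, at 1955 CPM, and in midkine 4-2, at 2176 CPM, against 3652 to 9942 CPM in the other 12 libraries. Those 3 libraries also stood apart in markers of other cells. Skeletal muscle fibre markers summed to 317134 CPM in midkine 1 and to 3450 CPM in midkine 5, the next library. Fibroblast markers summed to 130672 CPM in midkine 5, against 8716 CPM in vehicle 4, the next library. Leukocyte markers summed to 1687 CPM in midkine 4-2, against 454 CPM in midkine 3-2, the next library. The fast-fibre myosin MYH4 had at most 1 read in midkine 3-1, 3-2, 4-1, 4-2 and 4-3, and 461 or more in each of the other 10 libraries. Results for the 9 genes that rest on these libraries are given with and without them.

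The 9 genes did not share 1 peak tumour. CDKN1C, PEG3, MEST and GRB10 were highest in midkine 5, H19 and NDN in midkine 1, IGF2 in midkine 4-2, DLK1 in midkine 2 and PLAGL1 in midkine 3-2. The same library was highest for each gene when raw CPM or DESeq2 size factors took the place of the scaling used here. In 5 of the 9 (IGF2, H19, CDKN1C, PEG3 and NDN) the highest library was at least 2 times the next one, which held for 16.2% of all genes kept. By raw CPM, which leaves out the scaling factor of 0.558 for midkine 1, the count was again 5, beside 12.1% of genes kept, but with NDN at 1.24 times and MEST at 2.04 times the next library. All 9 were highest in a midkine library, as were 72.9% of genes kept. Midkine 1, 3-2, 4-2 and 5 were the highest library of 20.1%, 20.6%, 10.4% and 10.1% of genes kept. Every one of the 9 varied more between libraries than the median gene: the SD of log2 CPM was 1.54 for the median member, against 0.51 for the median gene kept.

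**Figure D1:**
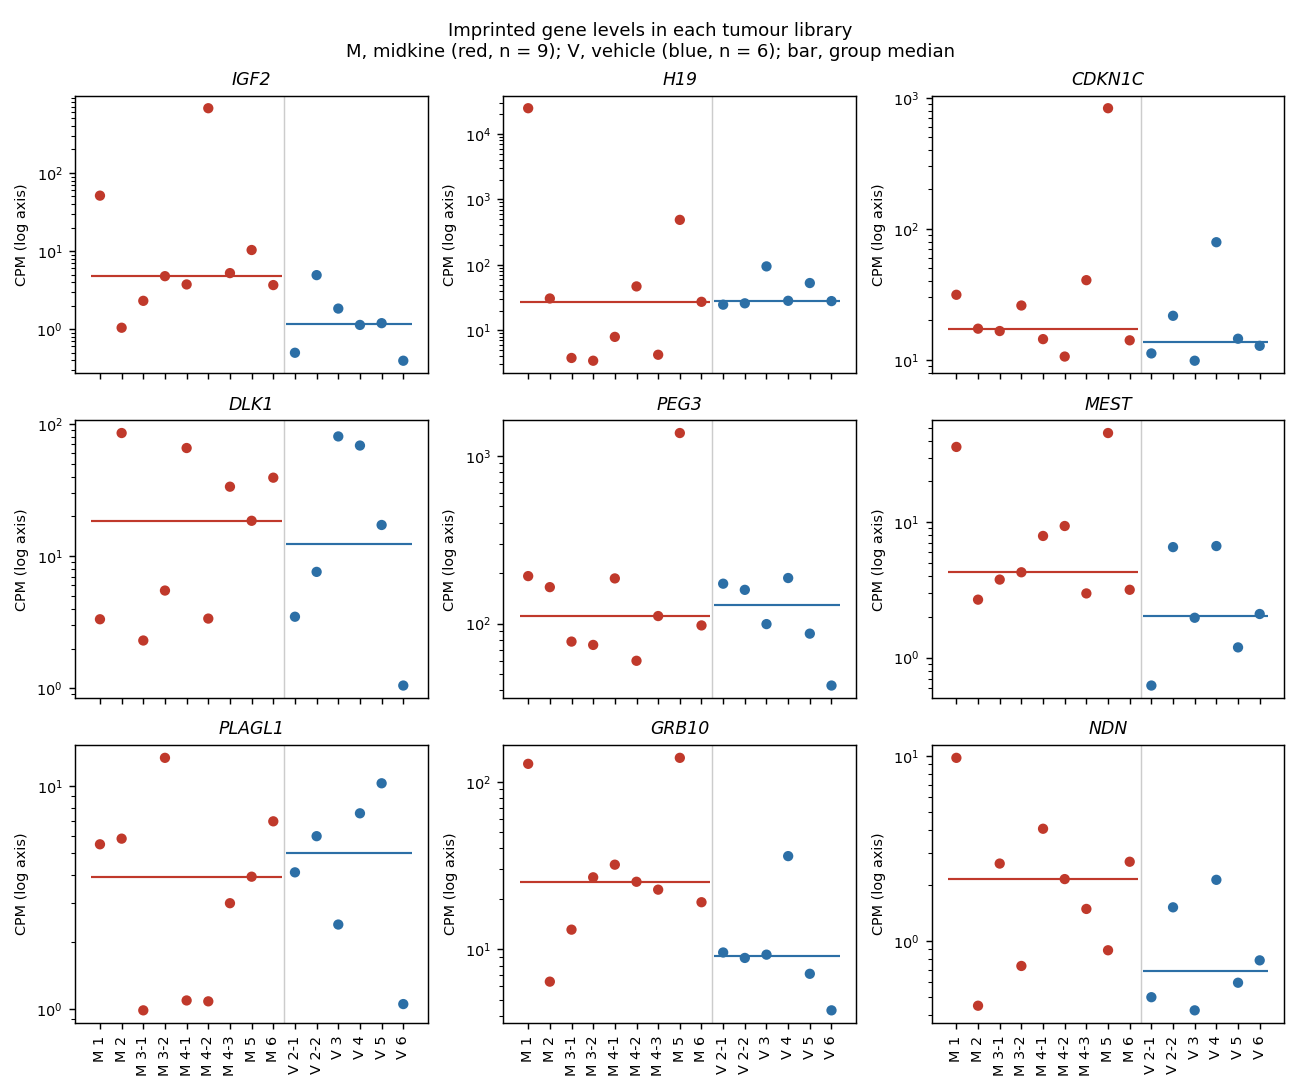
Level of each gene in each library, in CPM on a log axis, with the 9 midkine libraries (M, red) left of the 6 vehicle libraries (V, blue) and bars at the group medians. IGF2, H19, CDKN1C and PEG3 each have 1 midkine library far above the rest, while DLK1 and PLAGL1 spread over similar ranges in both groups.

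IGF2, the fetal insulin-like growth factor, was high in 1 tumour. Its level ran from 1.04 CPM (lowest) through 4.76 CPM (median) to 675 CPM (highest) in midkine libraries, against 0.393, 1.16 and 4.91 CPM in vehicle libraries. The highest value, in midkine 4-2, was 13.2 times that of midkine 1, at 51.2 CPM, and midkine 4-2 alone held 88.0% of the level summed over all libraries. Midkine 1, 4-2, 4-3 and 5 lay above every vehicle library and the other 5 midkine libraries lay within the vehicle range. Midkine 4-3 was close to vehicle 2-2, and by raw CPM it lay below, at 5.42 against 5.44. Midkine 4-1 and 4-3, which share the first title number of midkine 4-2, had 3.73 and 5.21 CPM. Among vehicle libraries, 2-1 and 2-2 were 9.87-fold apart, at 0.497 and 4.91 CPM. Leukocyte markers were highest in midkine 4-2 too. Over the 15 libraries IGF2 and the leukocyte sum had a Pearson r of 0.65 and a Spearman rho of 0.32, and r was 0.07 without midkine 4-2 and 3-2. With the adipocyte sum r was 0.70 (rho 0.67, and r = 0.70 without midkine 1 and 5), and with the endothelial sum it was 0.64 (rho 0.66, and r = 0.64 without midkine 5 and vehicle 6). Both of these last leave-outs kept midkine 4-2, the IGF2 peak, so they do not show the link without that library. The part of these cells in the IGF2 level was not tested. The genes nearest to IGF2 in pattern, by Pearson r of log2 CPM over the 15 libraries, were DIPK1A (r = 0.90, and 0.88 without midkine 4-2), SNX5 (r = 0.90 and 0.71) and RASGRP2 (r = 0.89 and 0.76).

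H19, the non-coding RNA gene beside IGF2 that is read from the opposite parental copy and is known in mouse for its expression in muscle, was high in another tumour. Its level ran from 3.42 CPM through 27.2 CPM to 24803 CPM in midkine libraries, against 24.6, 28.1 and 94.7 CPM in vehicle libraries. The highest value, in midkine 1, was 50.9 times that of midkine 5, at 487 CPM. Midkine 1 was also the library with the smallest scaling factor, 0.558, which raises its CPM above that by total reads. Midkine 3-1, 3-2, 4-1 and 4-3 lay below every vehicle library, at 3.42 to 7.92 CPM, and midkine 2, 4-2 and 6 lay within the vehicle range. The groups thus overlapped, with midkine libraries on both sides of the vehicle ones. In the tumour with the highest IGF2, midkine 4-2, H19 was at 46.8 CPM. IGF2 and H19, which share enhancers in mouse, had a Pearson r of 0.38 (rho 0.13) over the 15 libraries and of 0.01 without midkine 4-2 and 1.

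The H19 level moved with skeletal muscle markers. Its Pearson r with the summed fibre markers was 0.95 (rho 0.85), and 0.83 without midkine 1 and 4-3. The genes nearest to it in pattern were the muscle genes MYLPF, a fast myosin light chain (r = 0.98, and 0.96 without midkine 1), TNNT3, a fast troponin (r = 0.97 and 0.91), and NRAP, a myofibril assembly protein (r = 0.97 and 0.91). In midkine 1, H19 had 104173 reads and MYH4 424500, a ratio of 0.245. The 6 vehicle libraries had ratios of 0.226 to 0.683, and those of vehicle 2-1, 2-2 and 4 were 0.253, 0.248 and 0.226. Midkine 2, with 0.298, and midkine 6, with 0.392, lay in the same range, while midkine 5 had 5.94. The 5 libraries with at most 1 MYH4 read held 23 to 389 H19 reads. H19 in vehicle libraries was 0.203% to 0.708% of its level in midkine 1, and MYH4 was 0.170% to 0.300% of its level there. Whether reads of midkine 1 add to these low levels, and the part of muscle in the H19 level, was not tested.

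**Figure D2:**
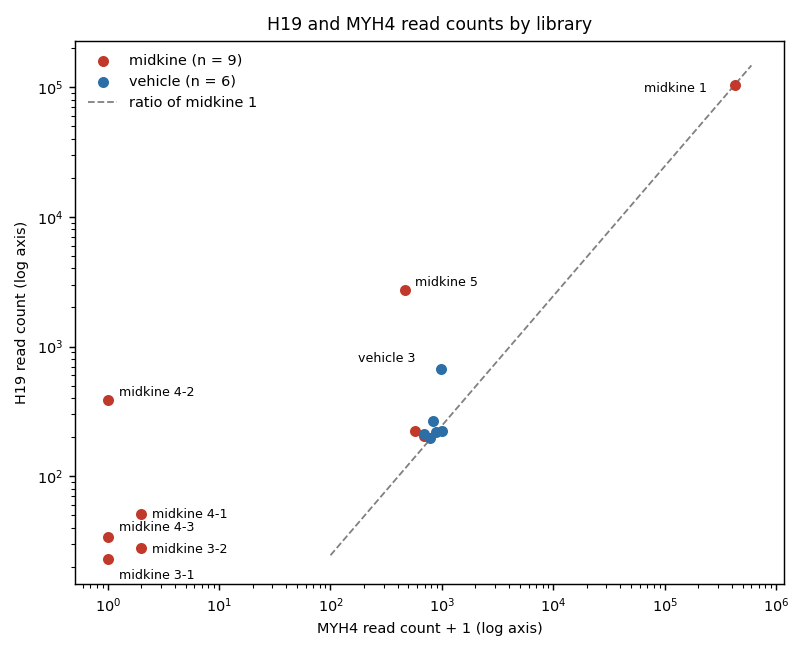
H19 read count against MYH4 read count plus 1 in each library (midkine red, vehicle blue), both on log axes, with a dashed line at the H19 to MYH4 ratio of midkine 1, 0.245. Midkine 2, midkine 6 and 5 of the vehicle libraries sit close to the line, while midkine 5, the 5 midkine libraries with at most 1 MYH4 read and vehicle 3 do not.

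CDKN1C encodes p57, an inhibitor of cyclin-dependent kinases that holds cells out of the cycle. It ran from 10.6 CPM through 17.3 CPM to 834 CPM in midkine libraries, against 9.85, 13.7 and 79.1 CPM in vehicle libraries. Midkine 5 was 10.5 times vehicle 4, the next library, and held 72.3% of the summed level. The other 8 midkine libraries lay between 10.6 and 40.6 CPM, inside the vehicle range. Both high libraries were the highest of their groups in fibroblast markers. The Pearson r of CDKN1C with the fibroblast sum was 0.75 (rho 0.51), and 0.50 without midkine 5 and 2. The part of fibroblasts was not tested. GDF11, a TGF-beta family ligand (r = 0.90, and 0.74 without midkine 5), CERCAM (r = 0.89 and 0.59) and AIFM2, an oxidoreductase that protects lipids from oxidation (r = 0.89 and 0.54), were nearest in pattern.

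GRB10 encodes an adaptor that binds the insulin and IGF1 receptors and dampens their signal. Values ran from 6.41 CPM through 25.3 CPM to 139 CPM in midkine libraries, against 4.32, 9.09 and 36 CPM in vehicle libraries. Midkine 5 and midkine 1, at 139 and 128 CPM, stood above all others, and the next library was vehicle 4. Vehicle 4 lay apart from the other 5 vehicle libraries, which had 4.32 to 9.57 CPM. KANK2 (r = 0.91, and 0.87 without midkine 5), VASH2 (r = 0.91 and 0.89) and GJC1, a gap junction protein (r = 0.91 and 0.92), were nearest in pattern.

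MEST, a gene for a hydrolase-fold protein that is induced in expanding fat in mouse, was highest in the same pair of libraries as GRB10. MEST ran from 2.68 CPM through 4.27 CPM to 45.6 CPM in midkine libraries, against 0.622, 2.03 and 6.67 CPM in vehicle libraries. Midkine 5, at 45.6 CPM, and midkine 1, at 36 CPM, were on top, followed by midkine 4-2 at 9.38 CPM. Vehicle 2-1 and 2-2 were 10.5-fold apart. The summed level of adipocyte markers was highest in the same libraries, at 841 CPM in midkine 1, 608 CPM in midkine 5 and 327 CPM in midkine 4-2, against 47.0 to 132 CPM in vehicle libraries. With that sum MEST had a Pearson r of 0.89 (rho 0.85), and 0.73 without midkine 1 and 5. For GRB10 the values were 0.82 (rho 0.72) and 0.54. Both genes also moved with other stromal sums. With the endothelial sum, MEST had r = 0.73 (rho 0.81) and GRB10 0.72 (rho 0.74), and 0.60 and 0.52 without midkine 5 and vehicle 6. With the fibroblast sum, MEST had r = 0.68 (rho 0.70) and GRB10 0.74 (rho 0.77), and 0.53 and 0.55 without midkine 5 and 2. Only 4 of the 8 adipocyte markers passed the filter on low counts, and ADIPOQ, a defining marker, was at a median of 0.621 CPM in midkine libraries and 1.06 CPM in vehicle libraries. ADIPOQ was at 176 CPM in midkine 1 and at most 10.2 CPM, in midkine 4-2, elsewhere. The midkine 5 sum was mostly FABP4, at 343 CPM, and LPL, at 218 CPM. The part of fat, vessel or connective tissue cells in the MEST and GRB10 levels was not tested. MEIS2, a homeobox factor (r = 0.92, and 0.88 without midkine 5), IRS3, an insulin receptor substrate (r = 0.91 and 0.86), and ZCCHC24 (r = 0.90 and 0.86) were nearest to MEST.

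PEG3, a zinc-finger protein gene expressed in brain and placenta in mouse, had its peak in midkine 5 as well. PEG3 ran from 60.1 CPM through 111 CPM to 1366 CPM in midkine libraries, against 42.8, 129 and 187 CPM in vehicle libraries. Midkine 5 was 7.12 times midkine 1, at 192 CPM, and the other 14 libraries spanned 42.8 to 192 CPM. Without midkine 5 the groups covered nearly the same range. The nearest gene in pattern was APEG3 (r = 0.97, and 0.95 without midkine 5), the antisense gene of PEG3. No source used here states whether counting used the strand, so reads of the pair cannot be told apart. AIFM2 (r = 0.91 and 0.69) and ENHO (r = 0.87 and 0.71) came next.

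DLK1, a membrane protein of the Notch ligand kind that keeps preadipocytes undifferentiated, had no single peak. Levels ran from 2.30 CPM through 18.5 CPM to 85.3 CPM in midkine libraries, against 1.05, 12.4 and 80.4 CPM in vehicle libraries. The means were 28.5 ± 30.3 CPM in midkine libraries (SD, n = 9) and 29.7 ± 35.3 CPM in vehicle libraries (SD, n = 6). High and low tumours occurred in both groups. Midkine 2 had 85.3 CPM, midkine 4-1 65.7 CPM, vehicle 3 80.4 CPM and vehicle 4 68.6 CPM, while midkine 3-1 had 2.30 CPM, midkine 1 3.33 CPM, vehicle 2-1 3.48 CPM and vehicle 6 1.05 CPM. Within the shared first title number 4, midkine 4-1, 4-2 and 4-3 had 65.7, 3.37 and 33.5 CPM. DLK1 moved with proliferation genes (MKI67, TOP2A, CCNB1, CDK1, BUB1 and AURKB), at a Pearson r of 0.75 (rho 0.80) with their sum, and 0.78 without midkine 3-2 and vehicle 3. That sum was 91.9 to 908 CPM in midkine libraries and 184 to 1021 CPM in vehicle libraries. ALPL, tissue-nonspecific alkaline phosphatase (r = 0.91, and 0.89 without midkine 2), CENPK, a kinetochore protein (r = 0.88 and 0.89), and KCNH1, a potassium channel (r = 0.88 and 0.88), were nearest in pattern.

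PLAGL1 encodes a zinc-finger transcription factor that in mouse regulates other imprinted genes. It had 0.984 CPM (lowest), 3.92 CPM (median) and 13.4 CPM (highest) in midkine libraries, against 1.05, 5.03 and 10.3 CPM in vehicle libraries. The highest library, midkine 3-2, was 1.30 times vehicle 5, and its partner by title number, midkine 3-1, was the lowest, a 13.7-fold span. The groups overlapped over nearly the whole range. PLEKHH3 (r = 0.74, and 0.70 without midkine 3-2), SCAF1 (r = 0.70 and 0.64) and DUSP14 (r = 0.68 and 0.59) were nearest in pattern. No gene that passed the naming rule came closer than r = 0.74 to PLAGL1, whereas each of the other 8 members had a gene at r of 0.84 or more. Without the highest library of each member, the closest of its 3 named genes was at 0.70 for PLAGL1, 0.72 for NDN and 0.74 for CDKN1C. For the remaining members it was at 0.88 or more.

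NDN encodes necdin, a growth-restraining protein of the MAGE family best known in neurons. Its counts were the fewest, 195 reads over all libraries, with 3 reads in midkine 2, vehicle 3 and vehicle 5. It ran from 0.447 CPM through 2.16 CPM to 9.76 CPM in midkine libraries, against 0.422, 0.690 and 2.14 CPM in vehicle libraries. Midkine 1 was 2.42 times midkine 4-1 (1.24 times by raw CPM), and 5 of the 9 midkine libraries lay above every vehicle library. The lowest of these, midkine 4-2 at 2.16 CPM, was close to vehicle 4 at 2.14 CPM. By raw CPM it lay below, at 2.29 against 2.3. At 3 to 6 reads a library, the differences among the lowest NDN values were not detectable at this depth. DYSF, the muscle membrane repair protein dysferlin (r = 0.84, and 0.72 without midkine 1), RAMP1 (r = 0.83 and 0.69) and TRARG1 (r = 0.83 and 0.72) were nearest in pattern.

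Co-variation joined some of the genes and not others. Over the 36 pairs the median Pearson r of log2 CPM was 0.28, from -0.23 for IGF2 and DLK1 to 0.87 for MEST and GRB10. An r of at least 0.5 was reached by 13 pairs, and 7 pairs had an r below 0. Between a member and all genes kept, the median r was -0.01 and 8.0% of pairs reached 0.5. PLAGL1 and DLK1 reached 0.5 with no other member. These points share libraries, and the highest values rest in part on the tumours that stand apart, as the values without them show. The median r over the 36 pairs was 0.19 by raw CPM and 0.41 over the 10 libraries with MYH4 reads. With 1 library left out it ran from 0.19 to 0.34.

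MEST and GRB10 were the closest pair, at r = 0.87 and rho = 0.80. Leaving out midkine 5 and 1 gave r = 0.64, and averaging libraries with the same group and first title number gave 0.96 over 11 points. Of all genes kept, 0.103% had an r of at least that size with MEST, and 0.103% with GRB10. CDKN1C and PEG3 came next at r = 0.83, with rho = 0.53, and had r = 0.28 without midkine 5 and vehicle 4. H19 and MEST had r = 0.59 and -0.24 without midkine 1 and 5. Without midkine 1, 4-2 and 5, the 3 libraries lowest in epithelial markers, MEST and GRB10 had r = 0.61, MEST and NDN 0.72, CDKN1C and PEG3 0.29, and IGF2 and H19 -0.53, and 9 of the 36 pairs reached 0.5. Among the libraries left, H19 was lowest in midkine 3-1, 3-2, 4-1 and 4-3, which had at most 1 MYH4 read.

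**Figure D3:**
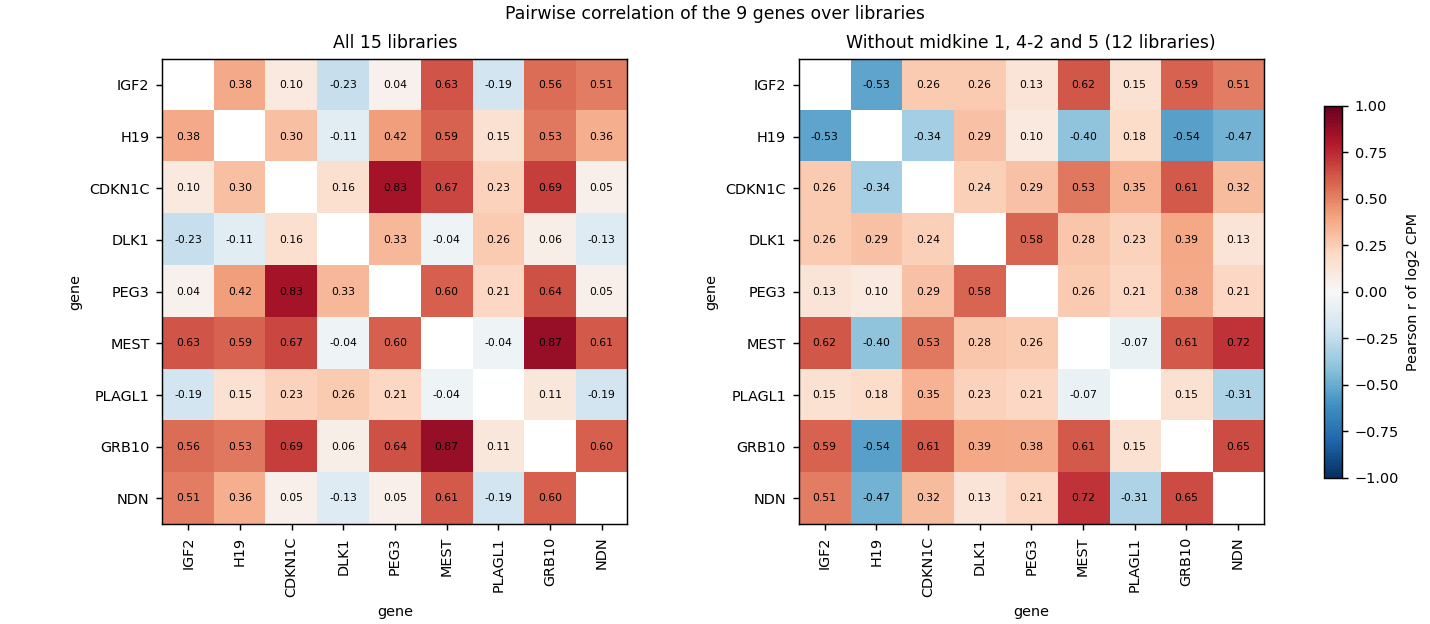
Pearson r of log2 CPM for each pair of the 9 genes over all 15 libraries (left) and over the 12 libraries other than midkine 1, 4-2 and 5 (right), red above 0 and blue below 0. MEST and GRB10 stay at 0.87 and 0.61, CDKN1C and PEG3 are at 0.83 and 0.29, and the H19 row changes from mostly red to mostly blue.

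**Figure D4:**
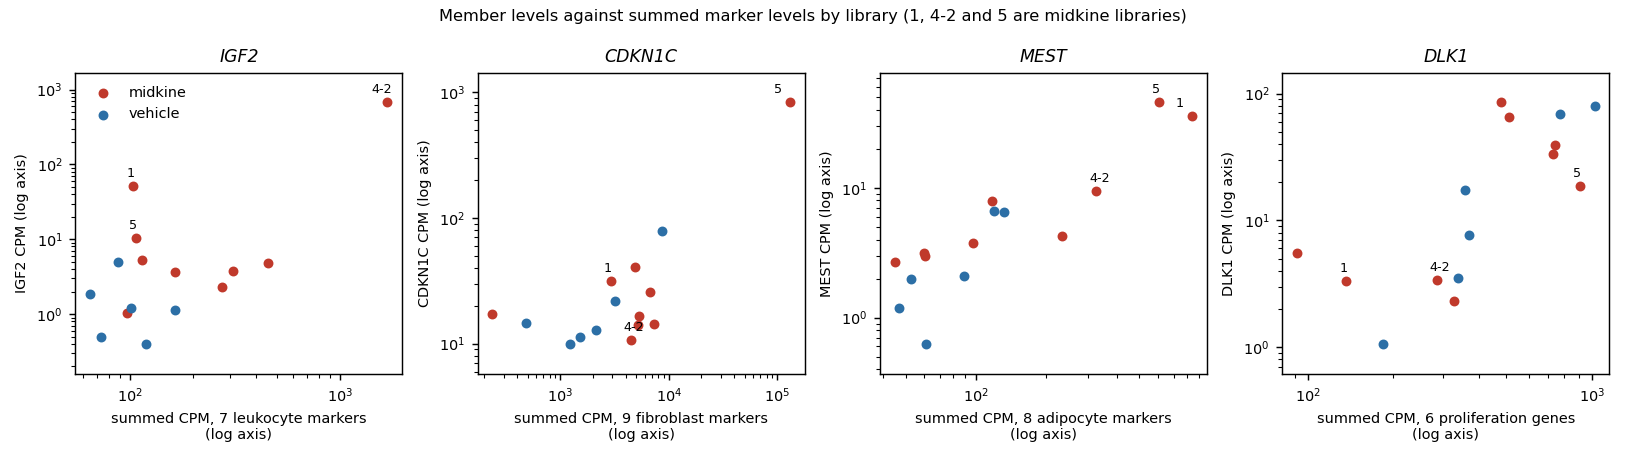
Level of 4 genes against the summed level of a marker list in each library, both in CPM on log axes, with midkine libraries in red and vehicle libraries in blue and the libraries midkine 1, 4-2 and 5 marked by number. The IGF2 and CDKN1C peaks fall in the libraries with the highest leukocyte and fibroblast sums, and MEST and DLK1 follow the adipocyte and proliferation sums over most libraries.

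Promoter windows of MEST and GRB10 are shown because these genes moved together. The PEG3 window is shown because it holds the motif of PLAGL1, although PEG3 and PLAGL1 had only r = 0.21 (rho = 0.2). The windows are RefSeq sequences of build GRCr8, from 250 bases before to 50 bases after the annotated start, read in the direction of the gene. The deposited counts were made on rn6, so the positions below belong to GRCr8 only. The MEST window is chr4:60321564-60321863 on the plus strand, that of GRB10 is chr14:90816338-90816637 on the minus strand and that of PEG3 is chr1:76130744-76131043 on the plus strand. Capitals mark GGGCGG, the GC box, and GGGGCCCC, the palindrome that PLAGL1 is known to bind in mouse. Both strands were searched, and no GGGCGG match overlaps GGGGCCCC in these windows.
MEST: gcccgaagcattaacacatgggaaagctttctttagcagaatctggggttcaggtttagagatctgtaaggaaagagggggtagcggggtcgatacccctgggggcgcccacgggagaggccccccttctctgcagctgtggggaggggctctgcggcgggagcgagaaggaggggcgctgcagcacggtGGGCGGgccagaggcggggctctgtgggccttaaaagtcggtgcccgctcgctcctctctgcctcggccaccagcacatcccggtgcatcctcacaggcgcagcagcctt
GRB10: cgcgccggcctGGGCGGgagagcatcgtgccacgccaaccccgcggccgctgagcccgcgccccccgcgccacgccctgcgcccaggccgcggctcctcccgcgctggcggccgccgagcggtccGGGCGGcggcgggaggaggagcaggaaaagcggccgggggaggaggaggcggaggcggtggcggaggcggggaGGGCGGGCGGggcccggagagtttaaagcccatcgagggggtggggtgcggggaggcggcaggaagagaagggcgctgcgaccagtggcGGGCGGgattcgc
PEG3: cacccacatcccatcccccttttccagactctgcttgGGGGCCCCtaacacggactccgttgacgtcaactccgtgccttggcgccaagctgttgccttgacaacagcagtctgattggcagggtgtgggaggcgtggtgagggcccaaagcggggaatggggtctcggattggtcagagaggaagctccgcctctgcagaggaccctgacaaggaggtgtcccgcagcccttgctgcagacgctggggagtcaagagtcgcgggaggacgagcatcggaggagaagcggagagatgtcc
The MEST window has 1 GC box, first base 60 bases before the start, and the GRB10 window has 5, of which the pair nearest to each other overlaps. PEG3 has no GC box and 1 GGGGCCCC, first base 213 bases before the start. GC content was 64.7% for MEST, 79.7% for GRB10 and 62.3% for PEG3, with 18, 44 and 16 CpG dinucleotides.

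Of the 9 genes, 7 had a window in the table, IGF2 had 2, and H19 and CDKN1C had none. GGGCGG was in 7 of these 8 windows and in 33.1% of all 33469 windows of that length. GGGGCCCC was in 1 of the 8 and in 0.858% of all windows, and TATAAA, the TATA box, was in 0 of the 8 and in 14.2% of all. The median GC content was 64.0% in the 8 windows and 51.7% in all, and the median number of CpG dinucleotides was 18.5 and 7. A match is a run of letters and not a bound site.

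Midkine and vehicle tumours did not differ past the threshold for any of the 9 genes. By edgeR's quasi-likelihood test with Benjamini-Hochberg adjustment over 11665 genes and a threshold of 0.05, no gene of the table was called (0.0%), and 1178 lay at an unadjusted p under 0.05. On the same genes limma-voom called 0 and DESeq2 called 79, none of them among the 9, with no p from DESeq2 for CDKN1C. The smallest edgeR adjusted p of any gene was 0.399. Since the members were chosen with their levels known, nothing is read from how many of them lay at an unadjusted p under 0.05. That was 5 of 9 higher in midkine (IGF2, H19, MEST, GRB10 and NDN), beside 7.96% of genes kept, and 0 lower, beside 2.13%. The log2 fold change, midkine over vehicle, was above 0 in 7 of 9, beside 55.7% of genes kept, and its median was 1.86 for the 9 genes and 0.04 for all genes kept. None of the 9 had groups that did not overlap, which 2 genes of the table (0.0171%) did.

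For the genes with a single high tumour the fold change followed that tumour. IGF2 had a log2 fold change of 5.63 (SE 1.69, adjusted p = 0.399 by edgeR), and 2.59 without midkine 4-2. H19 had 6.06 (SE 2.28, adjusted p = 0.399 by edgeR), and 0.86 without midkine 1. CDKN1C had 2.16 (SE 1.10, adjusted p = 0.538 by edgeR), and -0.21 without midkine 5. PEG3 had 1.05 (SE 0.68, adjusted p = 0.644 by edgeR), and -0.05 without midkine 5. In each of the 4, then, a single library carried most of the log2 difference.

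The other 5 genes kept more of theirs or had little to keep. MEST had a log2 fold change of 1.99 (SE 0.80, adjusted p = 0.431 by edgeR), GRB10 of 1.86 (SE 0.69, adjusted p = 0.399 by edgeR) and NDN of 1.41 (SE 0.63, adjusted p = 0.472 by edgeR). With any 1 library left out, MEST ran from 1.44 to 2.34, GRB10 from 1.45 to 2.54 and NDN from 0.90 to 1.78. MEST and GRB10 were high in both midkine 5 and midkine 1, so leaving out 1 of these kept the other. DLK1 had -0.06 (SE 0.93, adjusted p = 0.991 by edgeR) and PLAGL1 -0.16 (SE 0.59, adjusted p = 0.955 by edgeR), so that a difference of the size of the SE in either direction could not be told from none.

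Without midkine 1, 4-2 and 5, a choice made after the data were seen, the log2 fold changes of the genes above 1 with all libraries were smaller or reversed. Each of these genes was highest in 1 of the libraries left out, so lower values followed from the choice itself. IGF2 had 1.06 (SE 0.58), NDN 0.98 (SE 0.56), GRB10 0.69 (SE 0.50) and MEST 0.37 (SE 0.53), while CDKN1C had -0.19 (SE 0.52) and PEG3 -0.06 (SE 0.34). H19 had -1.71 (SE 0.61, adjusted p = 0.536 by edgeR). Of the midkine libraries left for that fit, 3-1, 3-2, 4-1 and 4-3 had at most 1 MYH4 read and H19 at 3.42 to 7.92 CPM. Midkine 2 and 6 lay within the vehicle range of H19. DLK1 had 0.37 (SE 0.96) and PLAGL1 0.05 (SE 0.65). Among the 10 libraries with MYH4 reads (4 midkine and 6 vehicle), which include midkine 1 and 5, the values were 7.24 (SE 1.73) for H19, 3.28 (SE 0.98) for IGF2, 3.19 (SE 1.16) for CDKN1C, 2.76 (SE 0.89) for MEST, 2.55 (SE 0.82) for GRB10, 1.89 (SE 0.70) for PEG3 and 1.72 (SE 0.79) for NDN. No member was called there either, with the lowest adjusted p, 0.283 by edgeR, for H19. The 5 libraries with at most 1 MYH4 read are all midkine and allow no comparison of their own.

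**Figure D5:**
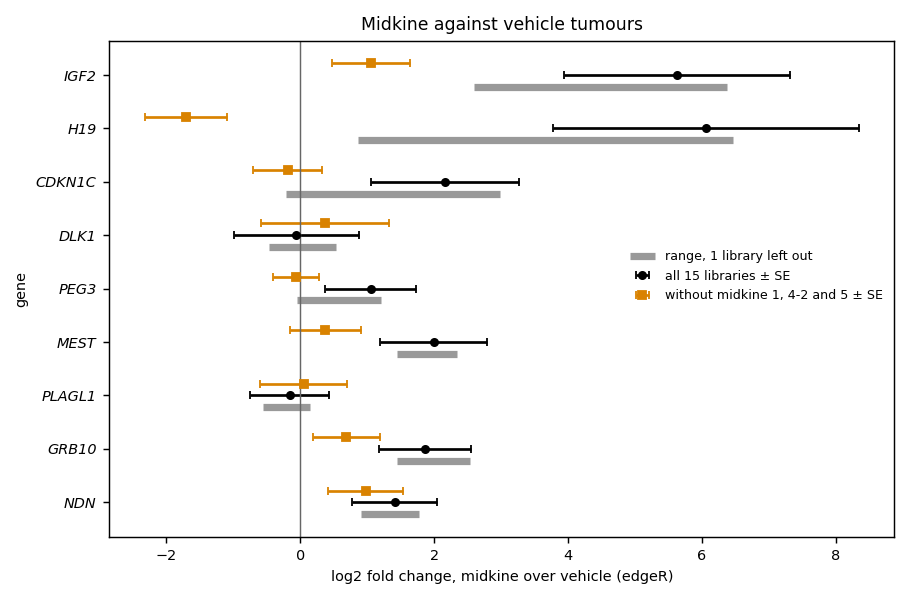
Log2 fold change of each gene, midkine over vehicle, by edgeR with all 15 libraries (black, bars are SE), without midkine 1, 4-2 and 5 (orange, bars are SE) and as the range with 1 library left out (grey bar). H19 is at 6.06 with all libraries and at -1.71 without those 3, and IGF2, MEST, GRB10 and NDN stay above 0 in each.

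Other imprinted genes gave no call. Of 19 further genes read from the paternal copy in mouse, 11 were in the table and 7 were kept, and of 21 from the maternal copy 18 were in the table and 10 were kept. None of these 17, and not GNAS, whose parental origin depends on the transcript, was called by edgeR. At an unadjusted p under 0.05, 0 were lower, beside 2.13% of genes kept, and 1 was higher, beside 7.96%. That was DIO3, the enzyme that inactivates thyroid hormone and a neighbour of DLK1 in mouse, with a log2 fold change of 1.91 (SE 0.76, adjusted p = 0.431 by edgeR). The median log2 fold change was 0.14 for the paternal and -0.02 for the maternal list. Of the kept genes of both lists, only DCN, which is also a fibroblast marker, had its highest library at least 2 times the next, at 1344 CPM in midkine 5. Such a peak held for 16.2% of all genes kept.

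Of the 12 further imprinted genes in the table that did not pass the filter, 7 had a highest library at least 2 times the next, 3 in midkine 5, 3 in midkine 1 and 1 in midkine 4-2. SNRPN and SNURF, both highest in midkine 1, had only 4 and 3 reads in all. INS2, ASCL2, CALCR and SLC22A2 had no such peak, and KCNK9 had 0 reads. ZIM1, which lies beside PEG3 in mouse, had 15.3 CPM in midkine 5, 8.04 times the next library. KLF14, which lies beside MEST, had 2.14 CPM in midkine 5 and 0.952 CPM in midkine 1, its next library. NAP1L5 had 6.95 CPM in midkine 5, 2.19 times the next library. ASB4 had 6.90 CPM in midkine 1, 38.8 times the next library, on 32 reads in all. SLC22A3, a neighbour of IGF2R, had 33.6 CPM in midkine 4-2, the tumour with the IGF2 peak, 17.6 times the next library. The genes of this paragraph were named after their values were seen. The filter drops genes with few reads in most libraries, which favours peaks in single libraries among the dropped genes. The share of peaks over all genes below the filter is not given here. Nothing is therefore read from this count or from the positions of these genes.

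Genes that act with the members gave no call either. IGF2R, the receptor that clears IGF2, named here after its values were seen, averaged 194 ± 54.2 CPM in midkine libraries (SD, n = 9) and 185 ± 29.0 CPM in vehicle libraries (SD, n = 6). Of 12 kept genes of the IGF pathway, 2 lay at an unadjusted p under 0.05, both higher (7.96% of genes kept), IGF1 with a log2 fold change of 2.08 (SE 0.51, adjusted p = 0.399 by edgeR) and the binding protein IGFBP6 with 1.09 (SE 0.47, adjusted p = 0.448 by edgeR). Both were highest in midkine 5, the library far above the others in fibroblast markers, at 128 CPM for IGF1 and 389 CPM for IGFBP6. Of 9 genes around CDKN1C (cyclins, their kinases and other inhibitors), CCND1, cyclin D1, was lower at an unadjusted p under 0.05 (2.13% of genes kept), at -0.78 (SE 0.27, adjusted p = 0.399 by edgeR). Of 8 kept genes that set or keep imprints, 1 lay at an unadjusted p under 0.05, higher (7.96% of genes kept). It was DNMT3A, a DNA methyltransferase, with a log2 fold change of 0.88 (SE 0.34, adjusted p = 0.405 by edgeR). Its medians were 16.2 CPM in midkine and 14.0 CPM in vehicle libraries, and it was highest in midkine 1 (50.2 CPM) and midkine 4-2 (40.7 CPM). DNMT3B, ZFP57 and UHRF1, the next by p, lay between -0.35 and -0.28.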

How the data were processed

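Bulk poly(A)-selected RNA from 15 tumour pieces (3000 ng each) was sequenced as 150-bp read pairs, per the labels' protocols. Gene counts were deposited by the authors as unscaled whole numbers, per the file headers. The submitters' processing notes name build rn6. The aligner's version, counting mode and strand setting were not given in the sources used here. Groups follow the treatment label. Genes were kept by edgeR's expression filter (edgeR 4.0.16, R 4.3.3), scaled by trimmed mean of M-values and compared by edgeR's quasi-likelihood test, adjusted by Benjamini-Hochberg. The SE is the absolute log2 fold change over the square root of F. Correlations used log2 CPM with a prior count of 2. DESeq2 1.42.0 and limma-voom (limma 3.58.1) were alternatives, with other scaling, no filter, summed libraries, a title-number block and libraries left out. The gene test was checked on simulated data. Members and lists were chosen with earlier results of these data known. Named besides the members are the 3 genes of highest r per member (mean log2 CPM at least 0, no placeholder symbol) and up to 4 per list by smallest p. Libraries of a group differed beyond sampling noise (lowest chi-square over its degrees of freedom, 19.9). All 9 members matched a RefSeq symbol. Counting precision is limited by depth: the smallest member count was 3 reads.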

Additional observations from a re-analysis of the deposited data

Results flagged for a closer look

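A library far from the rest of its group, by Dixon's test at the 95% level, was found in 9 of the 18 groups tested (9 genes in each of the 2 treatment groups). Chance gives about 1 in 20 for normally spread values, whereas the values used here are unlogged CPM. No share by the same rule over all genes kept is given, so an excess cannot be read from the number. The genes were chosen with their levels known, so the number of such libraries is a description.

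In midkine libraries, IGF2 was at 675 CPM in midkine 4-2 and at most 51.2 CPM in the others. H19 was at 24803 CPM in midkine 1, with 487 CPM next. CDKN1C was at 834 CPM in midkine 5, with 40.6 CPM next, and PEG3 at 1366 CPM in the same library, with 192 CPM next. PLAGL1 was at 13.4 CPM in midkine 3-2, with 6.95 CPM next. NDN was at 9.76 CPM in midkine 1, with 4.04 CPM next. By raw CPM these NDN values were 5.39 and 4.34.

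In vehicle libraries, IGF2 was at 4.91 CPM in vehicle 2-2, with 1.83 CPM next. CDKN1C was at 79.1 CPM and GRB10 at 36 CPM, both in vehicle 4, with 21.7 and 9.57 CPM next. Vehicle 4 was also the highest vehicle library in fibroblast markers, at 8716 CPM, and the part of fibroblasts in these levels was not tested.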

How the results depend on the processing

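DESeq2 called 79 genes (73 higher and 6 lower in midkine) where edgeR called 0 with 1178 at an unadjusted p under 0.05. limma-voom called 0, with 602 at an unadjusted p under 0.05, and no other setting called any. No setting called a member or another imprinted gene. IGF2, MEST, GRB10 and NDN kept their direction in all 23 alternatives, but not their size: IGF2 had 2.56 by DESeq2 and 2.83 by limma-voom, and by limma-voom and the block none of the 4 lay at an unadjusted p under 0.05. The other 5 reversed in some. DESeq2, which replaces outlying counts in groups as large as the midkine one, gave CDKN1C -0.22 (with no p) and PEG3 -0.02. limma-voom gave H19 -0.21 and DLK1 0.34. Summing libraries of a group and title number gave PLAGL1 0.03. The 10 libraries with MYH4 reads gave DLK1 0.31 and PLAGL1 0.11. Without midkine 1, 4-2 and 5, H19 had -1.71, CDKN1C -0.19, DLK1 0.37, PEG3 -0.06 and PLAGL1 0.05. The cause was not tested beyond the samples left out. With 1 library left out, CDKN1C ran from -0.21 to 2.99, DLK1 from -0.47 to 0.54, PEG3 from -0.05 to 1.2 and PLAGL1 from -0.56 to 0.14.

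No pairing of the groups by title number was seen. Same-numbered libraries of the 2 groups had deviations correlated at -0.236 to 0.139, and 1 number of 5 matched itself best. With 5 numbers and tumours of unlike marker levels, a shared date or batch could go unseen. With the number as a replicate block, 323 genes lay at an unadjusted p under 0.05 and 0 were called, H19 had -0.67, DLK1 0.19, IGF2 2.36, MEST 0.83, GRB10 0.88 and NDN 0.63. Title number 1 belongs to midkine 1 alone, so with the block that library adds nothing to the fold change. Without midkine 1 and with no block, H19 had 0.86.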
